A study of Mus musculus with 5 samples.

Results

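The mitochondrial ribosomal proteins were examined as 76 genes out of 18194 genes measured on the arrays. A gene was a member where a probe set carried a single gene symbol made of Mrpl or Mrps and a number. Where a gene had several such probe sets, the one brightest on average was used, which left 76 of 156 probe sets. Of the members, 49 encode proteins of the large subunit, 26 encode proteins of the small subunit, and Mrps36 carries the family name while its product is known as a component of the 2-oxoglutarate dehydrogenase complex.

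All samples were of 1 group. They were GFP+ cells sorted by flow cytometry from the lungs of postnatal day 2 mouse pups of the genotype SPC-GFP, with 5 biological replicates and 1 array each. SPC commonly stands for surfactant protein C, a secreted protein that marks alveolar type 2 cells. The pups were from SPC-GFP mice mated with outbred ICR mice, their lungs were chosen by GFP fluorescence and dissociated with trypsin/EDTA, and the labels do not say whether a replicate was 1 pup or a pool. The p-values therefore measure the spread between these 5 samples. No treatment, genotype or age was compared, so the questions were which members gave a signal above background and how they varied between the replicates.

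The mitochondrial ribosome, or mitoribosome, translates the few proteins encoded by mitochondrial DNA, all of them subunits of the oxidative phosphorylation complexes. Its RNAs come from mitochondrial DNA, whereas all of its proteins are encoded in the nucleus, made on cytosolic ribosomes and imported. Many of these proteins have a bacterial counterpart, and others were added in the mitochondrial lineage. Alveolar type 2 cells are rich in mitochondria and make surfactant lipids and proteins around birth.

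The titles and source names call the cells alveolar type 2, and the series' design text calls them ciliated. All 12 alveolar type 2 markers were above background, with means between 12.96 and 14.71. All 13 ciliated markers measured were above background too, with means between 6.66 and 11.20, and they differed between replicates by a median of 3.51-fold. Markers of alveolar type 1 cells (10 of 10), fibroblasts and smooth muscle (12 of 12), immune cells (12 of 12) and endothelial cells (10 of 10) were likewise above background. So were 74.9% of all genes tested. Means lay between 11.22 and 14.68 for alveolar type 1 markers and between 8.53 and 13.04 for fibroblast and smooth muscle markers. They lay between 9.11 and 14.34 for immune markers and between 9.12 and 11.57 for endothelial markers. Array medians lay between 7.12 and 7.19, and Pearson's r across all 45101 probe sets for the 10 pairs of arrays lay between 0.987 and 0.994.

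Upstream sequences are shown first for 7 members, chosen after motifs were searched, to show the matches whose shares are then compared with other genes. They are RefSeq promoter windows of 300 bases on GRCm38.p6, from 250 bases before the transcript start to 50 bases into the transcript. Each is printed 5′ to 3′ on the strand of the gene. The capitals mark matches, on either strand and with overlaps allowed, to the ETS motif CCGGAAG, to the NRF1 motif GCGCANGCG or to the YY1 motif AAGATGGCG. ETS factors such as GABP (NRF-2), the factor NRF1 and the factor YY1 are known regulators of nuclear genes for mitochondrial proteins. Mrps11 lies at chr7:78782881-78783180, plus strand, Mrpl43 at chr19:45006393-45006692, minus strand, and Mrpl45 at chr11:97315466-97315765, plus strand. Mrps26 lies at chr2:130563507-130563806, plus strand, Mrps18a at chr17:46110754-46111053, plus strand, Mrpl57 at chr14:57825989-57826288, plus strand, and Mrpl52 at chr14:54426659-54426958, plus strand.
Mrps11: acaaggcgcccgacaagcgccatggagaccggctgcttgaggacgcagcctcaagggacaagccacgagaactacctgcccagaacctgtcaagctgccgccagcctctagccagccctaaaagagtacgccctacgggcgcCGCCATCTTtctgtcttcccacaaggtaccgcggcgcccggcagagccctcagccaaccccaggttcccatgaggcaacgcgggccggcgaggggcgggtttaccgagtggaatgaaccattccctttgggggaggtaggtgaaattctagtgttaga
Mrpl43: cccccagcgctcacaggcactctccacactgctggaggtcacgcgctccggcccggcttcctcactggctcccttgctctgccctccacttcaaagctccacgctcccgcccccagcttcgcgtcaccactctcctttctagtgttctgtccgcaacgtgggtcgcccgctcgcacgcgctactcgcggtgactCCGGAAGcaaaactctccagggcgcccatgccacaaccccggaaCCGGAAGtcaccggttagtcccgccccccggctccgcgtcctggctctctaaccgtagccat
Mrpl45: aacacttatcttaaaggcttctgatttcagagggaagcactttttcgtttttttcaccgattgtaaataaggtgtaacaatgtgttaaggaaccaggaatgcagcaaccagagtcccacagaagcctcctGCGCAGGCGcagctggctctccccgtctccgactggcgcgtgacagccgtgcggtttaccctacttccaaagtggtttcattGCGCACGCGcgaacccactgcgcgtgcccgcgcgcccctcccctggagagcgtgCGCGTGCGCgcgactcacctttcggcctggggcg
Mrps26: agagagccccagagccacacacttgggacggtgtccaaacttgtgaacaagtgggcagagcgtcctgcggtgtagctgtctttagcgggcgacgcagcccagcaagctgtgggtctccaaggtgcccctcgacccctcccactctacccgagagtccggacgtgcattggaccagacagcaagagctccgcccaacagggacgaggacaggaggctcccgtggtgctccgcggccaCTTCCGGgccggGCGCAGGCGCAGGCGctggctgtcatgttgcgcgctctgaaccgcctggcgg
Mrps18a: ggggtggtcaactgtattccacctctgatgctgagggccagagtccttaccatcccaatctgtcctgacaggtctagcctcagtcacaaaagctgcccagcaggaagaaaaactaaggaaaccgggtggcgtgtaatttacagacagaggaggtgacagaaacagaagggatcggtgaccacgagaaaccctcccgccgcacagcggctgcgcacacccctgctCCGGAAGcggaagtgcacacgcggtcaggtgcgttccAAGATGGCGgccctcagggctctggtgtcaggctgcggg
Mrpl57: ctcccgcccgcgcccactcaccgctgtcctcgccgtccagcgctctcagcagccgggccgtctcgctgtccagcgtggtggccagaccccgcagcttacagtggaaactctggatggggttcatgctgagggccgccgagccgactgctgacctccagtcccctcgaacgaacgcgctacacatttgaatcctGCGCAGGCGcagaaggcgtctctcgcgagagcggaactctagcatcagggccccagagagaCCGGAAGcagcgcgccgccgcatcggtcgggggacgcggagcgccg
Mrpl52: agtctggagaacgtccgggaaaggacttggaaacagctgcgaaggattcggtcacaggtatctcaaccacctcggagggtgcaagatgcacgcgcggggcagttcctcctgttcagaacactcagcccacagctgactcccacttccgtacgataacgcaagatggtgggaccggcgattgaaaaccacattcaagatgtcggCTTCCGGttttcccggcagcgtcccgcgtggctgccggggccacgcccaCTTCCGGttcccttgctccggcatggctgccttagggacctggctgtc

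Mrps11, a small subunit gene with a wide range between replicates, is shown because its start lies 42 bases from that of Mrpl46, a large subunit gene read the opposite way. Its window holds a YY1 match on the opposite strand, 108 bases before the start. Mrpl43, shown for repeated ETS matches, holds them at 56 and 12 bases before the start. Mrpl45, whose signal was among the lowest and steadiest, is shown for 3 NRF1 matches at 120 and 38 bases before the start and 16 bases after it. Mrps26 is shown for an ETS match beside a pair of NRF1 matches that overlap each other. Mrps18a combines an ETS match 26 bases before the start with a YY1 match 11 bases after it. Mrpl57 combines an NRF1 match 57 bases before the start with an ETS match 4 bases after it. Mrpl52, the member with the highest signal, is shown for ETS matches 47 bases before the start and 2 bases after it. A match is a description of the letters and not a measured binding site.

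RefSeq promoter windows were found for 67 of the 76 members, 73 windows in all, with several starts for Mrpl2, Mrpl48 and Mrps16. The ETS motif was present in 34.2% of the member windows (25 of 73), against 15.8% of the windows of genes above background and 8.86% of all 32851 windows in the table. The NRF1 motif was present in 20.5% of member windows (15 of 73), against 12.0% for genes above background and 6.25% of all windows. The YY1 motif was rarer, in 10.96% of member windows (8 of 73), against 2.64% for genes above background and 1.40% of all windows. At least 1 of these motifs was found in 40 of the 73 member windows (54.8%), against 26.9% for genes above background and 14.8% of all windows. Other motifs were about as frequent as in genes above background: the E-box CACGTG was in 9.59% of member windows against 9.41%, and the TATA box TATAAA in 6.85% against 7.60%. Member windows had a median GC content of 58.7% and a median of 21 CpG dinucleotides, against 60.3% and 19 for genes above background and 52.7% and 7 for all windows.

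Many of these genes start back to back with a neighbour. A transcript start on the opposite strand lay within 1000 bases upstream for 27 of the 73 member windows (37.0%, 25 genes), against 16.8% for genes above background and 11.4% of all windows. Several neighbours are themselves genes of mitochondrial function: Mrps12 starts 147 bases from Sars2, the mitochondrial seryl-tRNA synthetase. Mrpl43 starts 116 bases from Twnk, the mitochondrial DNA helicase, and Mrpl47 starts 308 bases from Ndufb5, a complex I subunit. Mrpl49 is paired with Fau, which encodes a cytosolic ribosomal protein, at a distance of 192 bases. The members themselves are spread over 17 chromosomes, with 11 of them on chromosome 11.

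Every member gave a signal above background. Background was set per array at the 95th percentile of 78 genes for odorant, vomeronasal and taste receptors. That these genes are mostly silent in the sorted cells was assumed and not tested. The background lay between 5.41 and 5.69 on the log2 scale. By limma's one-sided moderated test with Benjamini-Hochberg adjustment, 76 of 76 members were above it, against 74.9% of all genes tested (13576 of 18116). The largest adjusted p among members was 2.52e-13, for Mrps5, and 4 of the 78 receptor genes were called too. Member means lay between 8.61 and 13.78, with a median of 11.27, and the genes above background had a median of 10.03. The median of means was 11.26 for the large subunit and 11.27 for the small subunit. Signals of different probe sets depend on their sequences, so the order of members is an order of signals and not of transcript numbers.

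**Figure D1:**
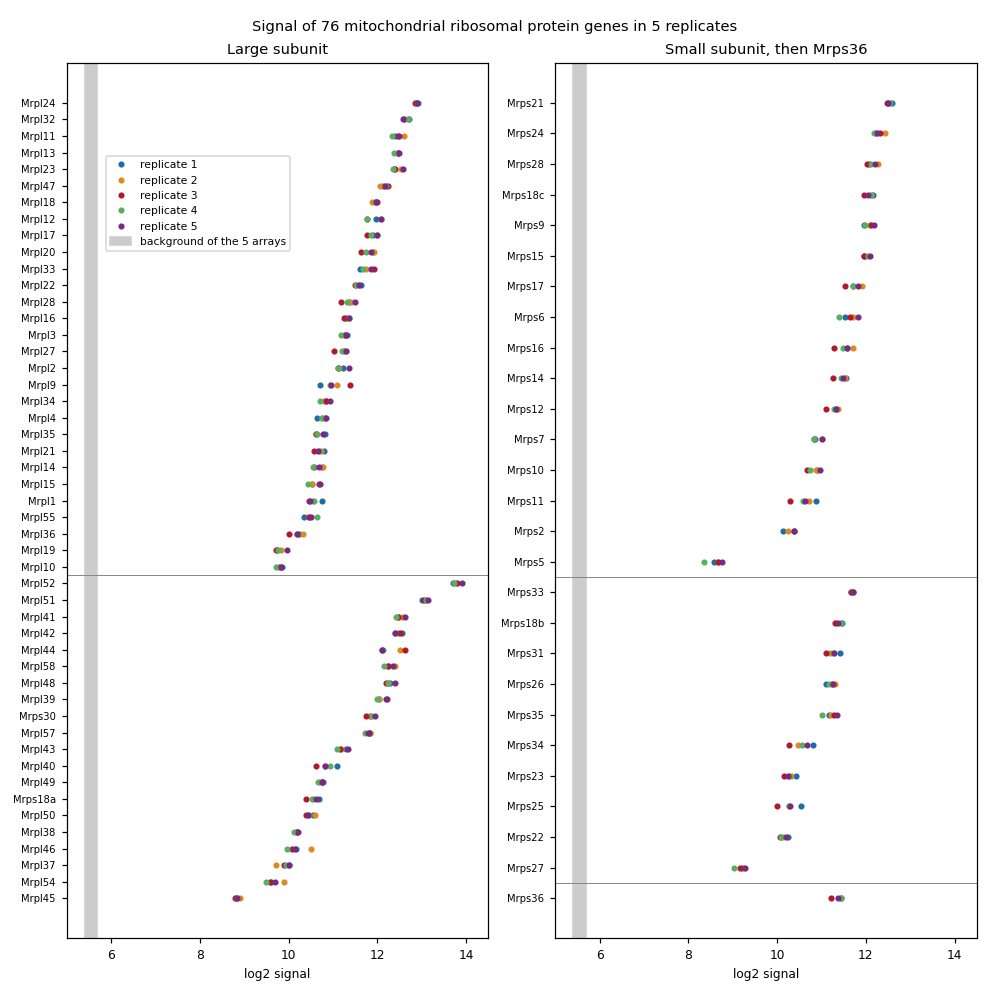
The log2 signal (x axis) of each of the 76 members (y axis) is plotted with 1 point per replicate, the large subunit on the left and the small subunit and Mrps36 on the right; a line within each panel parts proteins with a bacterial counterpart (above) from mitochondrial additions (below), and a last line sets off Mrps36. The grey band is the background of the 5 arrays, 5.41 to 5.69, and all points lie to the right of it, from Mrps5 at 8.61 on average to Mrpl52 at 13.78.

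Of the 49 large subunit members, 29 have a bacterial counterpart, with means between 9.79 and 12.89. Mrpl24 (uL24m), which lies near the peptide exit tunnel, had log2 signals of 12.92, 12.88, 12.84, 12.90 and 12.89 in replicates 1 to 5, a mean of 12.89 ± 0.029 (SD, n = 5). Mrpl32 (bL32m), which is matured by the m-AAA protease of the inner membrane, had 12.72, 12.70, 12.61, 12.70 and 12.57. These values differed by 1.05-fold between the extreme replicates for Mrpl24 and by 1.11-fold for Mrpl32. Mrpl12 (bL12m), of the stalk that recruits translation factors and also known to bind mitochondrial RNA polymerase, had 11.96, 12.07, 11.78, 11.78 and 12.08. Its replicates 3 and 4 were the lowest and its replicates 2 and 5 the highest, a range of 1.24-fold. Mrpl36 (bL36m), a very small protein of the large subunit, had 10.23, 10.33, 10.001, 10.20 and 10.19, lowest in replicate 3. Mrpl3 (uL3m), a core protein of the large subunit, had 11.31, 11.25, 11.27, 11.17 and 11.29, and its replicates lay within 1.1-fold of each other.

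The other 20 large subunit members are mitochondrial additions, with means between 8.84 and 13.78. Mrpl52 (mL52) had the highest signal of all members, 13.70, 13.77, 13.81, 13.72 and 13.90 in replicates 1 to 5, and Mrpl51 (mL51) the next, 13.02, 13.11, 13.05, 13.09 and 13.15. Both were highest in replicate 5 and lowest in replicate 1, within 1.15-fold for Mrpl52 and 1.1-fold for Mrpl51. Mrpl45 (mL45), which sits at the tunnel exit and anchors the ribosome to the inner membrane, was at the low end with 8.81, 8.90, 8.80, 8.85 and 8.83. Its replicates differed by 1.07-fold. Mrpl38 (mL38), of the central protuberance of the subunit, was as steady, with 10.17, 10.19, 10.18, 10.13 and 10.21. Mrpl58, a peptidyl-tRNA hydrolase that became part of the ribosome, had 12.24, 12.39, 12.25, 12.16 and 12.36, and Mrpl41 (mL41) had 12.47, 12.57, 12.47, 12.41 and 12.61. Both were lowest in replicate 4. Mrps30 (mL65) and Mrps18a (mL66) carry small subunit names although their products lie in the large subunit. Mrps30 had 11.83, 11.84, 11.74, 11.89 and 11.95 and Mrps18a had 10.68, 10.55, 10.40, 10.54 and 10.61, both lowest in replicate 3. Mrpl57, shown above for its NRF1 and ETS matches, had 11.84, 11.84, 11.81, 11.73 and 11.79, within 1.08-fold. Mrpl39 (mL39) and Mrpl50 (mL50), both linked to human disease, had 12.04, 12.04, 12.21, 11.99 and 12.20 for Mrpl39 and 10.56, 10.60, 10.39, 10.47 and 10.43 for Mrpl50. Mrpl39 was high in replicates 3 and 5, and Mrpl50 was lowest in replicate 3. Their second probe sets had other orders. That of Mrpl39 (mean 10.55) was highest in replicate 1, at 10.65, and that of Mrpl50 (mean 9.52) was highest in replicate 3, at 9.73.

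In the small subunit, 16 members have a bacterial counterpart and 10 are mitochondrial additions. Mrps21 (bS21m) had the highest signal of the subunit, 12.60, 12.51, 12.48, 12.54 and 12.50, within 1.08-fold. Mrps5 (uS5m), a core protein near the entry of the mRNA channel, had the lowest signal of all members, 8.58, 8.67, 8.68, 8.36 and 8.75. Its lowest replicate was replicate 4, and its range was 1.31-fold. This order depended on the probe set. On the next probe set of Mrps5, with a mean of 8.40, replicate 4 was the highest (8.54) and replicate 5 the lowest (8.23). Mrps33 (mS33) had the smallest range of all members, 11.67, 11.72, 11.65, 11.72 and 11.70, a difference of 1.05-fold. Mrps27 (mS27), a pentatricopeptide repeat protein of the kind that binds RNA, had 9.21, 9.26, 9.17, 9.03 and 9.27, lowest in replicate 4. Mrps18b (mS40) and Mrps18c (bS18m) are paralogues of Mrps18a. Mrps18b had 11.47, 11.33, 11.31, 11.43 and 11.37 and Mrps18c had 12.16, 12.11, 11.97, 12.11 and 12.05. All 3 paralogues were highest in replicate 1 and lowest in replicate 3. Mrps28 (bS1m) had 12.07, 12.26, 12.02, 12.12 and 12.21, highest in replicate 2 and lowest in replicate 3. Mrps36, of the 2-oxoglutarate dehydrogenase complex, had 11.43, 11.43, 11.22, 11.44 and 11.38, with replicate 3 apart from the other 4.

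Human disease is linked to 15 of the members, most often as early-onset defects of oxidative phosphorylation. All 15 were above background, like the whole family and 74.9% of all genes tested, with means between 10.15 and 12.89, and 9 of the 15 were lowest in replicate 3, against 36 of all 76 members and 24.6% of genes above background. Mrps22 (mS22) had 10.25, 10.12, 10.08, 10.09 and 10.21 and Mrps23 (mS23) had 10.43, 10.32, 10.16, 10.27 and 10.25. Mrps14 (uS14m) had 11.54, 11.54, 11.27, 11.44 and 11.50 and Mrps16 (bS16m) had 11.58, 11.71, 11.29, 11.48 and 11.57. These 4 were all lowest in replicate 3, by up to 1.34-fold from the highest replicate in Mrps16. Mrps2 (uS2m), with 10.13, 10.25, 10.37, 10.38 and 10.39, and Mrps7 (uS7m), with 10.86, 11.01, 10.84, 10.84 and 11.004, had other orders: Mrps2 was lowest in replicate 1, and Mrps7 was nearly level in replicates 1, 3 and 4.

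The members varied little between replicates. The median SD was 0.098 and the median range from the lowest to the highest replicate was 1.18-fold, against 0.15 and 1.30-fold for all genes above background. Only Mrpl9 and Mrps11 had a range over 1.5-fold, 2 of 76 members, against 27.4% of genes above background. Because SD falls with signal on these arrays, each variance was also divided by the variance that limma fitted for genes of that signal. The ratio was below 1 for 57 of 76 members (75.0%), against 50.0% of genes above background, with a median ratio of 0.62 for members. The median ratio was 0.56 for the large subunit and 0.84 for the small subunit. Cytosolic ribosomal protein genes had a median ratio of 0.38, at signals (median 14.26) near the top of the scale, whose highest value was 15.24. Subunits of oxidative phosphorylation, the complexes that mitochondrial translation serves, had 0.58.

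**Figure D2:**
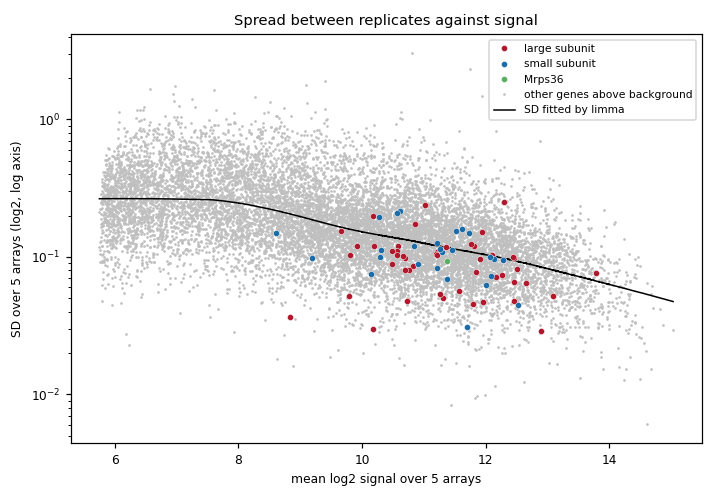
The SD over the 5 arrays (y axis, log scale, log2 units) is plotted against the mean log2 signal (x axis) for each gene above background, with large subunit members in red, small subunit members in blue and Mrps36 in green. The black line is the SD that limma fitted, and 57 of the 76 members lie below it.

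No member passed the test for a spread wider than the fitted trend. In the F test on limma's fitted variances with Benjamini-Hochberg adjustment, 0 of 76 members were called, against 0.0% of genes above background. With so few degrees of freedom this test called no gene at all. Even the fibroblast marker Dcn, with a range of 5.09-fold, had an adjusted p of 0.859 in it. The adjusted count therefore does not set the members apart from other genes. At an unadjusted p under 0.05, 0 of 76 members passed, against 5.6% of genes above background (760 of 13576). The member nearest to the threshold was Mrpl44 (mL44), a protein with an RNase III-like domain, with an unadjusted p of 0.0519 and an adjusted p of 0.892 from limma's variances. Its log2 signals were 12.10, 12.50, 12.61, 12.13 and 12.10 in replicates 1 to 5. Replicates 2 and 3 were high and the other 3 lay between 12.10 and 12.13, a range of 1.43-fold. Mrpl9 (bL9m), a large subunit protein with a bacterial counterpart, had 10.72, 11.08, 11.37, 10.94 and 10.97. It was highest in replicate 3 and lowest in replicate 1, by 1.58-fold.

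Several other members with wide ranges were lowest in replicate 3. Mrps11 (uS11m), of the platform of the small subunit, had 10.87, 10.72, 10.28, 10.59 and 10.62, a range of 1.5-fold. Mrps25 (mS25) had 10.55, 10.27, 9.996, 10.28 and 10.28 and Mrps34 (mS34) had 10.81, 10.48, 10.26, 10.57 and 10.68. These 3 small subunit genes were each highest in replicate 1 and lowest in replicate 3. Mrpl40 (mL40), of the central protuberance, had the same extremes, with 11.09, 10.81, 10.62, 10.94 and 10.83. Mrpl46 (mL46), also of the central protuberance, had 10.18, 10.50, 10.09, 9.96 and 10.16, highest in replicate 2 and lowest in replicate 4. Its head-to-head neighbour Mrps11 was highest in replicate 1 and lowest in replicate 3, so the extremes of this pair fell in different replicates. Mrps6 (bS6m) had 11.53, 11.70, 11.64, 11.40 and 11.82, highest in replicate 5 and lowest in replicate 4.

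Across the family, replicate 3 and replicate 4 were the low ones. Replicate 3 was the lowest of the 5 for 36 members, against 24.6% of genes above background, and replicate 4 for 26 members, against 18.0%. Replicate 1 was the lowest for 10 members (22.8% of genes above background), replicate 2 for 3 (19.9%) and replicate 5 for 1 (14.7%). Replicates 3 and 4 together held the lowest value for 62 of 76 members (81.6%), against 42.6% of genes above background. This joint count was chosen after the values were seen. Replicate 5 was the highest for 26 members (21.2% of genes above background), replicate 1 for 23 (22.4%) and replicate 2 for 17 (16.2%). Replicate 3 was the highest for 7 members, against 26.6%, and replicate 4 for 3, against 13.5%. The place of replicate 5 depended on the probe set. With the median over the probe sets of a gene it was the highest for 16 members, against 21.8% of genes above background. It was then the lowest for 10, against 13.8%. Replicate 3 was then the highest for 11 members (24.3% of genes above background) and replicate 4 for 6 (13.7%). In replicate 3, 51 of 76 members lay below their own mean (67.1%), against 49.5% of genes above background, and in replicate 5, 59 lay above it (77.6%), against 55.2%.

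The size of these shifts was small. The median deviation of the members from their own means was 0.015, 0.026, -0.057, -0.042 and 0.051 in replicates 1 to 5, on the log2 scale. The same for genes above background was -0.0078, -0.0026, 0.0021, -0.017 and 0.017. The members' medians thus spanned 1.08-fold from replicate 3 to replicate 5, less than the 1.18-fold median range of a single member. Less the median of genes above background, the members' median in replicate 5 was 0.034, and this was 0.011 with the median over probe sets and 0.014 without replicate 3. No test was made of this pattern, since the 5 replicates are 1 group and have no contrast.

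**Figure D3:**
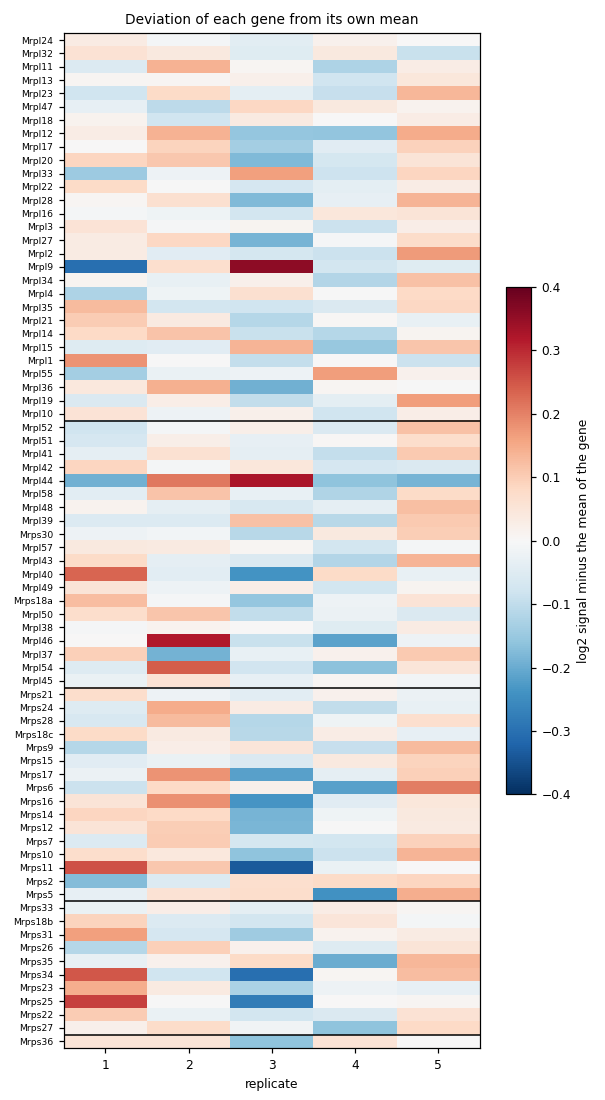
Each row is a member and each column a replicate, and the colour is the log2 signal minus the mean of that gene (red higher, blue lower). Lines part, from top to bottom, the large subunit with bacterial counterparts, its mitochondrial additions, the small subunit with bacterial counterparts, its mitochondrial additions, and Mrps36. Columns 3 and 4 hold the lowest value of 62 of 76 rows, and Mrpl44 and Mrpl9 are red in column 3.

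The subunits differed in which of the low replicates was lower. Replicate 3 was the lowest for 17 of 26 small subunit members and replicate 4 for 6. In the large subunit, replicate 3 was the lowest for 18 of 49 members and replicate 4 for 20. Median deviations in replicates 1 to 5 were 0.0099, -0.0014, -0.039, -0.056 and 0.049 for the large subunit. They were 0.036, 0.038, -0.074, -0.024 and 0.054 for the small subunit. Replicate 3 was the highest for 7 large subunit members and 0 small subunit members. The difference between the subunits was not tested.

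Some other measures were also extreme in replicate 3. Of the fibroblast and smooth muscle markers, 11 of 12 were lowest there, as were 9 of 12 immune, 7 of 13 ciliated and 5 of 10 endothelial markers. The share of genes above background was 24.6%. Alveolar type 1 markers ran the other way, with 6 of 10 highest (26.6% of genes above background) and 0 lowest in replicate 3. The median deviations in replicates 1 to 5 were -0.087, 0.35, -0.50, -0.12 and 0.41 for fibroblast and smooth muscle markers. They were 0.036, -0.095, -0.45, 0.24 and 0.27 for immune markers, and 1.11, 0.35, -0.52, -0.47 and -0.37 for ciliated markers. For alveolar type 2 markers they were 0.035, -0.027, 0.028, 0.075 and -0.071, with replicate 4 highest and replicate 5 lowest. They were -0.21, 0.11, 0.10, -0.12 and 0.11 for alveolar type 1 markers and 0.059, -0.12, -0.15, -0.030 and 0.16 for endothelial markers. In bulk RNA, fewer cells of a type and less RNA per cell cannot be told apart. The log2 difference between the 3′ and the 5′ probe sets of Gapdh, a control for RNA integrity and amplification, was 1.27, 1.52, 1.67, 1.39 and 1.60 in replicates 1 to 5. For Actb it was 0.60, 0.54, 0.84, 0.55 and 0.56, so both were largest in replicate 3. The Gapdh difference was next largest in replicate 5, where the members' median was highest. It was 1.39 in replicate 4, the members' other low replicate. The part of cell composition, RNA quality and amplification in the members' pattern was not tested.

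**Figure D4:**
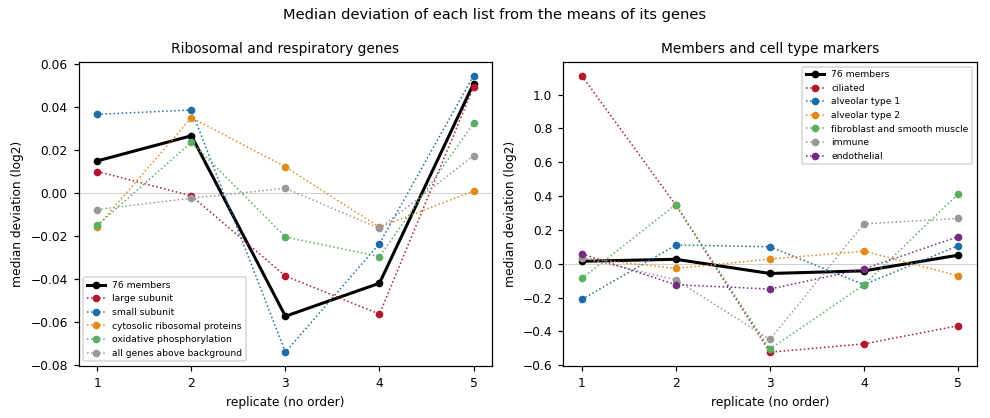
The median deviation (y axis, log2) of the genes of each list from their own means is plotted per replicate (x axis; the replicates have no order and lines only guide the eye), with ribosomal and respiratory genes on the left and cell type markers on the right on a wider scale. The 76 members (black) lie between -0.057 in replicate 3 and 0.051 in replicate 5, and replicate 3 lies at -0.50 for fibroblast and smooth muscle, -0.45 for immune and -0.52 for ciliated markers.

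Related gene groups did not all follow the members. Of the oxidative phosphorylation genes, 87 of 90 were above background, against 74.9% of all genes tested. Their median deviations were -0.015, 0.023, -0.021, -0.030 and 0.032 in replicates 1 to 5. Their replicate 3 or replicate 4 was the lowest for 59 of 87 genes (67.8%), against 42.6% of genes above background. Cytosolic ribosomal protein genes had -0.016, 0.035, 0.012, -0.016 and 0.00076. Replicate 3 or 4 was the lowest for 17 of 40 of them (42.5%), as for genes above background in general. The members' share was 62 of 76.

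Mitoribosomal proteins without the family name, all 4 measured, were above background, like 74.9% of all genes tested. Dap3 (mS29), a GTP-binding protein of the small subunit, had 11.72, 11.86, 12.08, 11.76 and 11.85, highest in replicate 3. Gadd45gip1 (mL64) had 8.86, 8.63, 8.16, 8.70 and 8.84, lowest in replicate 3 by 1.62-fold from its highest replicate. Ptcd3 (mS39), a pentatricopeptide repeat protein, had 11.21, 11.17, 11.28, 11.21 and 11.40. Genes for these proteins of the same particle thus ran in different directions in replicate 3.

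A list of mitochondrial translation factors was measured as well. It also held Lrpprc, Slirp, Oxa1l and Letm1, which are not translation factors in the strict sense. All 14 genes of the list were above background, like 74.9% of all genes tested. Of the 14, 3 were lowest in replicate 3, Letm1 among them, against 24.6% of genes above background. In the same replicate 5 were highest, Oxa1l among them, against 26.6%. Median deviations of the list were 0.029, -0.040, 0.060, -0.038 and 0.0013 in replicates 1 to 5. Mtif3, an initiation factor, had 10.22, 10.34, 10.39, 10.25 and 10.69, and Gfm2, a ribosome recycling factor, had 7.67, 7.88, 8.01, 7.90 and 7.53. Guf1, related to the bacterial elongation factor LepA, had 8.72, 8.51, 8.72, 8.56 and 8.31. Mtif3 was highest in replicate 5, where Gfm2 and Guf1 were lowest.

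All 27 genes for assembly of the mitoribosome were above background, like 74.9% of all genes tested. Trub2, a pseudouridine synthase of mitochondrial RNA granules, had 10.93, 10.63, 11.39, 10.59 and 11.01, and Mettl17, which acts in assembly of the small subunit, had 9.21, 9.53, 9.84, 9.39 and 9.54. Rmnd1, which is needed for mitochondrial translation, was near background with 5.98, 6.13, 7.004, 5.91 and 6.10. All 3 were highest in replicate 3, and they are those with the widest ranges in the list, 1.74-fold for Trub2, 1.55-fold for Mettl17 and 2.13-fold for Rmnd1. By this count the list as a whole did not share it: 8 of 27 (29.6%) were highest in replicate 3, near the 26.6% of genes above background. Its median deviations were -0.038, 0.066, 0.062, -0.058 and 0.0071 in replicates 1 to 5, positive in replicate 3 where the members' median was negative. In replicate 3, 10 of 27 lay below their own mean (37.0%), against 49.5% of genes above background. Replicate 2 was the highest for 12 of 27 (44.4%), against 16.2% of genes above background.

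The list of mitochondrial aminoacyl-tRNA synthetases also held Qrsl1, Gatb and Gatc, which encode subunits of a tRNA amidotransferase. It held Kars and Gars too, whose products also serve the cytosol. Of its genes, 20 of 21 were above background, against 74.9% of all genes tested. Of these 20, 9 were highest in replicate 3, Qrsl1 among them, against 26.6% of genes above background. Mars2, for methionine, was the exception, with 5.18, 5.57, 7.73, 5.67 and 5.55 and a limma adjusted p of 0.092. Its replicate 3 stood above the other 4, which lay near background. Yars2, for tyrosine, had 9.93, 10.24, 10.79, 10.22 and 10.48, highest in replicate 3, and Wars2, for tryptophan, had 8.61, 7.86, 8.40, 7.91 and 8.07, highest in replicate 1. The list's median deviations were -0.081, -0.021, 0.095, -0.048 and 0.064 in replicates 1 to 5, positive in replicate 3 where the members' median was negative.

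Genes for mitochondrial transcription and DNA maintenance (9 of 9) and regulators of mitochondrial biogenesis (10 of 10) were above background. The share of all genes tested was 74.9%. Tfam, which packages mitochondrial DNA, had 10.75, 10.98, 10.54, 10.68 and 10.44, and Polrmt, the mitochondrial RNA polymerase, had 9.95, 9.88, 10.34, 9.95 and 10.24. Tfam was highest in replicate 2 and Polrmt in replicate 3. Mgme1, a mitochondrial exonuclease, was lowest in replicate 3, with 7.70, 7.26, 6.21, 7.03 and 7.39. Ppargc1a, the coactivator PGC-1α, had 8.94, 8.96, 9.73, 8.91 and 8.83, with replicate 3 above the other 4. Its paralogue Ppargc1b had 7.10, 7.62, 7.78, 7.19 and 7.74. Myc, a growth regulator that also acts on mitochondrial genes, had 9.44, 8.62, 8.30, 9.10 and 8.51, highest in replicate 1 and lowest in replicate 3. Of the 10 regulators, 6 were highest in replicate 3, against 26.6% of genes above background and 7 of 76 members.

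Probe sets of the same gene differed far more than replicates did. For 34 members there was 1 probe set, and for 42 there were several, up to 8 for Mrpl15. Among the 42, the probe sets of a gene differed by a median of 4.79 on the log2 scale. For 9 members, probe sets of the same gene fell on both sides of background: Mrpl13, Mrpl17, Mrpl28, Mrpl33, Mrpl42, Mrpl54, Mrps5, Mrps11 and Mrps21. The widest gap was 9.06, for Mrpl42 (mL42): the probe set used gave 12.55, 12.46, 12.51, 12.40 and 12.41 and the other gave 3.39, 3.50, 3.58, 3.21 and 3.32. Mrpl13 (uL13m) had 12.46, 12.46, 12.47, 12.37 and 12.49 on the probe set used and 3.42, 3.72, 4.00, 4.22 and 3.65 on the lowest of its 4. The lowest probe set of Mrpl17 (bL17m) averaged 4.28, with 11.90 ± 0.097 (SD, n = 5) on the probe set used. For Mrpl28 (bL28m) the lowest averaged 4.41, with 11.35 ± 0.12 (SD, n = 5) on the probe set used. The 2 probe sets of Mrpl33 (bL33m) averaged 11.76 and 4.84. Those of Mrpl54 (mL54) averaged 9.65 and 5.48. In each case only the highest probe set stood for the gene. With the median over the probe sets of a gene in its place, 76 of 76 members were again above background.

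Probe sets of a gene also differed in which replicate was high. Mrpl44 had 4 probe sets, all above background. The probe set used and the next were highest in replicate 3. The next had 11.63, 12.01, 12.15, 11.71 and 11.62 in replicates 1 to 5. The other 2 were lowest in replicate 3, with 11.42, 11.20, 11.12, 11.28 and 11.23 on the first and 10.10, 9.90, 9.87, 9.97 and 9.91 on the second. So the direction of Mrpl44 in replicate 3 depended on the probe set. Mrpl9 kept its direction on its second probe set, with 9.96, 10.13, 10.27, 10.001 and 10.17, highest in replicate 3 like the probe set used. Its weakest probe set did not, with 8.42, 8.07, 8.18, 7.88 and 8.11, highest in replicate 1 and lowest in replicate 4. Mrps25 had weaker probe sets with 8.60, 8.11, 7.98, 8.13 and 8.25 on the first and 8.11, 8.20, 8.29, 7.63 and 7.76 on the second, of which the first was lowest in replicate 3 and the second highest. Mrps25 and Mrps9, also plotted, were chosen for display after the values were seen. Of 25 members with a second probe set above 8 on the log2 scale, 17 had the same sign of the replicate 3 deviation on both.

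**Figure D5:**
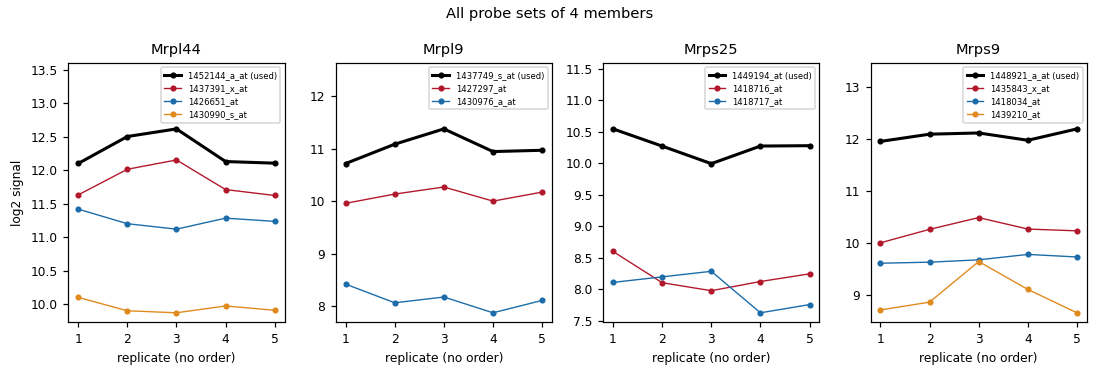
The log2 signal (y axis) of each probe set is plotted per replicate (x axis; no order, lines only guide the eye) for Mrpl44, Mrpl9, Mrps25 and Mrps9, with the probe set used in black. For Mrpl44, 2 of the 4 probe sets peak in replicate 3 and 2 have their lowest value there.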

How the data were processed

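The 5 samples are GFP+ cells sorted from postnatal day 2 lungs. Per the labels' protocols, total RNA was column-purified, amplified (NuGEN Ovation V2), labelled with biotin and run on Affymetrix arrays of a single colour. The deposited values are on a log2 scale, 1 per probe set and array; the base was inferred from their range (2.46 to 15.24). How the authors corrected and normalized them is not given in the sources used, so they were taken as deposited. No scanner files were used, so saturation was not checked; arrays give no counts, and their number limits the precision.

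Probe sets were named through the platform annotation. Of 45101, 34958 had 1 symbol; 9211 unnamed ones and 932 with several symbols were left out, among them 4 naming Mrpl30, Mrpl53 or Mrps34. The symbols of all 76 members are in the RefSeq gene table. No probe coordinates are given.

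Values minus each array's receptor background were fitted over 18116 genes by limma 3.58.1 in R 4.3.3 (intercept model, eBayes with trend), one-sided, with Benjamini-Hochberg adjustment and a threshold of 0.05. The receptors were picked by symbol. Spread was tested over 13576 genes by a one-sided F test (4 and 3.86 degrees of freedom) of each gene's variance against that of limma's robust trend. Both tests were tried on simulated data, and no result given here rests on those trials. Deviations were described by counts and medians. Tables were joined in Python 3.11.15 with pandas 2.3.3.

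The members and gene lists were chosen with earlier results of these data known. Named with values were members at the extremes of range (8 widest, 6 narrowest) or of mean (4 and 4), those with probe sets on both sides of background, and a fixed list of members with a role of their own or a disease link, and, of other lists, members not above background and the 3 with the widest range. The exceptions are said in the text. Alternatives were receptor percentiles of 90 and 99, a gene's median probe set value, leaving out _x_at and _s_at probe sets, quantile normalization, median centring, no filter on low signal, no robust prior, and leaving out each replicate.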

Additional observations from a re-analysis of the deposited data

Results flagged for a closer look

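In 2 of the 76 members (2.63%) a single replicate stood apart from the other 4 by Dixon's criterion, which chance meets in about 1 in 20 groups. Mrpl18 (uL18m) was lowest in replicate 2, at 11.87, with 11.97, 11.87, 11.99, 11.95 and 11.98 in replicates 1 to 5. The gap to the nearest replicate was 0.71 of its whole range, but that range was only 0.12 on the log2 scale. Mrps36, of the 2-oxoglutarate dehydrogenase complex, was lowest in replicate 3, at 11.22, with a gap of 0.75 of a range of 0.22.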

How the results depend on the processing

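All 76 members were above background under every alternative tried (73 of the 73 that remained without _x_at and _s_at probe sets), and 484 of 484 calls of the 44 named members over these alternatives were kept. The count of members with an unadjusted spread p under 0.05 by the F test on limma's variances was 0 in the main setting. It was 1 without _x_at and _s_at probe sets, 1 with no filter on low signal and 1 with no robust prior, and 0 to 1 when each replicate was left out; the gene was Mrpl44 each time. After adjustment the count was 0 throughout. The members with probe sets on both sides of background were 9 with the 95th percentile as background, 5 with the 90th and 22 with the 99th. The median variance ratio lay between 0.55 and 0.71 over the alternatives.

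The members' median deviation less that of all genes above background was 0.023, 0.029, -0.059, -0.025 and 0.034 in replicates 1 to 5. Its sign held under the alternatives run, but its size did not: it lay between 0.0036 and 0.038 in replicate 1, 0.012 and 0.043 in replicate 2, -0.064 and -0.037 in replicate 3, -0.052 and -0.014 in replicate 4, and 0.011 and 0.044 in replicate 5. The 62 members lowest in replicate 3 or 4 became 60 after centring on genes above background, 61 after quantile normalization, 52 with the median over probe sets, and 40 without replicate 3 (24.9% of genes above background) or 44 without replicate 4 (28.7%), since a single low replicate then remained. Without replicate 3, replicates 1, 2 and 5 were the lowest for 16, 11 and 9 members, and without replicate 4 for 20, 9 and 3. These alternatives to the joint count were chosen after seeing the data. No paired analysis was possible because all samples are of 1 group. With 5 arrays of 1 group, no shift between replicates could be tested against a condition.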

Other observations

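Some members share their start region with a gene of cell division or DNA repair, and 3 such neighbours, chosen after the values were seen, had ranges over 2-fold. Mrpl27 starts 48 bases from Eme1, a subunit of a DNA repair endonuclease. Mrpl27 had 11.25, 11.30, 11.03, 11.21 and 11.29 in replicates 1 to 5, a range of 1.20-fold, and Eme1 had 8.24, 7.66, 7.04, 8.02 and 7.07, a range of 2.29-fold. Mrpl57 starts 76 bases from Ska3, a kinetochore protein. The range of Mrpl57 was 1.08-fold, whereas Ska3 had 7.53, 6.63, 6.41, 7.34 and 6.51, a range of 2.18-fold. Mrpl51 starts 614 bases from Ncapd2, a condensin subunit. The range of Mrpl51 was 1.10-fold, and Ncapd2 had 9.58, 8.81, 8.48, 9.32 and 8.82, a range of 2.14-fold. The neighbour of Mrps18c, the DNA repair helicase gene Helq 159 bases away, was unlike them, with a range of 1.22-fold against 1.14-fold for Mrps18c. Eme1, Ska3 and Ncapd2 were highest in replicate 1, next in replicate 4 and lowest in replicate 3, an order that Mrpl27, Mrpl57 and Mrpl51 did not have. These 3 neighbours also had lower signals, with means of 7.61, 6.88 and 9.01 against 11.21, 11.80 and 13.08 for the members. SD falls with signal on these arrays, and the part of signal in the wider ranges was not tested. Where the neighbour is a gene with a high, steady signal, both were level: Mrpl18 had a range of 1.08-fold and Tcp1, a chaperonin subunit 238 bases away, had 13.07, 13.07, 13.10, 13.04 and 13.14, a range of 1.07-fold. Mrpl32 had 1.11-fold and Psma2, a proteasome subunit 205 bases away, had 1.07-fold.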
